A study of Mus musculus with 16 samples.

Results

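Transcripts of 32 genes that repair DNA crosslinks, carry out homologous recombination or copy past damaged bases were followed in mouse liver after oxaliplatin, a platinum drug that links DNA bases within and between strands. The genes were a list of symbols, and all 32 were found among the 40840 symbols of the count table. Of these, 27 had enough reads for a test, and 5 did not: Fancd2 with 53 reads in all libraries together, Fanci with 70, Rad54l with 60, Exo1 with 28 and Eme1 with 26. Poly(A)-selected RNA had been sequenced from livers of male mice on the C57BL/6J background, 12 to 16 weeks old, in 4 groups of 4 libraries. The groups were CryDKO mice (Cry1-/- Cry2-/-, lacking both cryptochromes) dosed at circadian time 16 (CT16), CryDKO mice dosed at CT8, wild-type (WT) mice dosed at CT16 and WT mice dosed at CT8. Every mouse had been kept in constant darkness and, per the labels, had been injected intraperitoneally with oxaliplatin, 12 mg/kg a day for 3 days in a row, although the series text also speaks of a single dose. No untreated mice were analysed here, and the hour at which livers were taken is not stated. Nothing in the labels ties each library to an animal of its own, so p values measure only how far these libraries spread, which may be partly technical.

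Crosslink repair begins when the Fanconi anemia (FA) core complex, recruited to a stalled replication fork, attaches ubiquitin to the pair FANCD2 and FANCI. Nucleases gathered by SLX4 then cut the DNA on either side of the lesion, translesion polymerases fill the gap across it, and the broken strand is repaired by recombination with BRCA1, PALB2, BRCA2 and their partners. Cryptochromes repress the transcription factors CLOCK and BMAL1, which act through E-box elements in promoters. Adult liver consists mostly of resting cells, in which genes of the S phase machinery are usually low.

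Promoter sequences of 3 members are shown because they belong to genes whose counts differed below and carry one of the elements searched for. The sequences come from RefSeq on build GRCm38.p6, within 250 bases before the annotated start, and bases that lie in an exon of GENCODE M21 are left out. Fancg also differed and carries an E2F word, but this word lies in such an exon, so its sequence is not shown. Brca2 is on the plus strand at chr5:150522371-150522620, Rev1 on the minus strand at chr1:38129802-38129916 and Slx4 on the minus strand at chr16:4001681-4001928. Capitals mark an E2F word in Brca2 and the E-box CACGTG in Rev1 and Slx4.
Brca2: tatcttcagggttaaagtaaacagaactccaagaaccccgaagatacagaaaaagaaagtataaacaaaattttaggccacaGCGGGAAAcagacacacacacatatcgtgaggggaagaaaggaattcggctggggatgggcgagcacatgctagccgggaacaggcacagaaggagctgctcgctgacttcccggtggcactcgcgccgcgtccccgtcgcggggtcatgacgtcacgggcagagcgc
Rev1: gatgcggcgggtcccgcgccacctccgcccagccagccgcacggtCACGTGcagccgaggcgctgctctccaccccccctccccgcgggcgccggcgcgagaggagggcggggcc
Slx4: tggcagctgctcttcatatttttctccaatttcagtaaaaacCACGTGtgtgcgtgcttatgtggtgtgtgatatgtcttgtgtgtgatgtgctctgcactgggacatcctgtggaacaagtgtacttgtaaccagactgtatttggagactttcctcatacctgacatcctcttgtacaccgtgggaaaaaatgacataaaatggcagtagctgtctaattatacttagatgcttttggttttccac
The Slx4 window belongs to the RefSeq start, and in GENCODE M21 the gene begins 2092 bases further upstream, so the window lies within the gene there.

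Of the 32 members, 25 matched a RefSeq promoter, with 28 promoters between them. Fancd2, Rad51d, Xrcc2, Rad50, Nbn, Exo1 and Rev3l had no match. The E-box CACGTG, the same word on both strands, stood in the promoters of Slx4, Rev1 and Eme1, at 208, 205 and 237 bases before the start, which is 10.7% of the member promoters and 6.02% of all 32851 promoters. E2F words (TTTCCCGC, TTTGGCGC, TTCCCGCC or TTGGCGCC, either strand, some sharing letters with each other) stood in those of Brca2, Fancb, Fancg, Fancm and Rad51c, which is 17.9% of the member promoters and 3.16% of all. No member promoter held a D-box (TTATGTAA or TTACGTAA) or a CHR element (TTTGAA or TTCGAA) on either strand, words found in 0.931% and 17.1% of all promoters. These matches describe letters within the window and say nothing of binding. Distances count from the RefSeq start, and GENCODE M21 begins Rev1 135 bases and Eme1 221 bases further upstream, nearer to their E-boxes.

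Libraries held 18083916 to 29934138 counted reads, of which 2683 to 6664 fell on the 32 members, 0.0125% to 0.0251% of a library. Levels are given as CPM, counts scaled to a common library total, after adjustment by trimmed means (TMM). Scaling mattered here, since TMM factors were 0.812 to 0.951 in CryDKO at CT16, 0.840 to 1.02 in CryDKO at CT8, 0.921 to 0.955 in 3 WT libraries at CT16 and 1.13 to 1.24 in WT at CT8. The fourth WT library at CT16, numbered 8 in the series, had a factor of 1.20 and stood apart from its group. Its summed hepatocyte markers were 61665 CPM, against 90161 to 106120 in the other 3, and its summed macrophage markers were 103 CPM, against 29.3 to 57. Its summed sinusoidal endothelium markers were 125 CPM, against 44.6 to 73.3, and its stellate cell and fibroblast markers 161 CPM, against 73.0 to 90.7. Its cholangiocyte markers, at 54.4 CPM, lay within the 46.4 to 76.4 CPM of the others. Over all 8 hepatocyte markers the sums were 108575 to 175667 CPM in CryDKO at CT16 and 110135 to 152415 in CryDKO at CT8, against 57025 to 68321 in WT at CT8, and those of WT at CT16 are given above. Of these 8 markers, 2 were called higher in CryDKO at CT16 (Alb and Hnf4a) and 6 at CT8, with median log2 changes of 0.29 and 0.85. Alb alone lay at 66061 to 115461 CPM in CryDKO libraries at CT16 against 35277 to 63024 CPM in WT libraries. The 10 macrophage markers summed to 114 to 192 CPM in CryDKO libraries at CT16 against 29.3 to 103 CPM in WT libraries, with 5 of 10 called higher, and to 72.9 to 176 CPM in CryDKO libraries at CT8 against 60.7 to 84.3 CPM in WT libraries, with 2 called higher. Of 9 stellate cell and fibroblast markers, 2 rose in CryDKO at CT16 (sums of 51.5 to 154 CPM in CryDKO against 73.0 to 161 CPM in WT) and 4 at CT8 (132 to 263 CPM in CryDKO against 109 to 149 CPM in WT). Of 5 cholangiocyte markers, 1 rose and 1 fell at CT16 (47.4 to 146 CPM in CryDKO against 46.4 to 76.4 CPM in WT), and 2 rose at CT8 (50.4 to 146 CPM in CryDKO against 25.8 to 91.7 CPM in WT). Over all tested genes, 9.0% were called higher and 9.15% lower in CryDKO at CT16, and 18.7% higher and 20.3% lower at CT8. The 2 of 10 macrophage markers called higher at CT8 were near that share. The part of differences in marker levels in the results below was not tested. Of 8 sinusoidal endothelium markers, 1 rose in CryDKO at CT16 and 0 were called at CT8. Of 6 erythroid markers 2 were tested, Hbb-bs, which rose at both times, and Alas2, which fell at CT8. Erythroid sums were 12.0 to 43.4 CPM in CryDKO against 28.3 to 50.6 CPM in WT at CT16. At CT8 they were 12.7 to 31.3 CPM in CryDKO against 39.8 to 48.1 CPM in WT. Of 4 tested neutrophil markers, 0 were called at either time. The 10 T, NK and B cell markers summed to between 0.845 and 3.47 CPM in every library, too low to test. In whole liver, fewer cells of a type and less RNA per cell cannot be told apart. Cry2 lay at 23.1 to 33.3 CPM in libraries labelled CryDKO, against 39.9 to 58.9 in WT libraries, and Cry1 at 20.5 to 29.0 CPM against 5.14 to 15.9. The deleted parts were not analysed here, so these counts do not check the knockout.

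Per kilobase of exon, the members spanned a wide range. Nbn, a sensor of broken DNA ends, was highest at a mean of 5.23 CPM per kb over all 16 libraries. It was followed by Rad51d at 3.95, Fance at 3.80, Mus81 at 3.31 and Rev1 at 2.91, while Exo1 was lowest at 0.00866 and Fancd2 next at 0.0165. Of the pair that the FA core complex modifies, Fancd2 had 0 to 0.324 CPM and Fanci 0 to 0.450 CPM per library. The 5 untested members were also the 5 lowest per kb. Nbn and Rad51d differed little between groups: Nbn had 10.7 to 15.3 CPM in the 8 CryDKO libraries and 12.0 to 17.2 CPM in the 8 WT libraries.

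**Figure D1:**
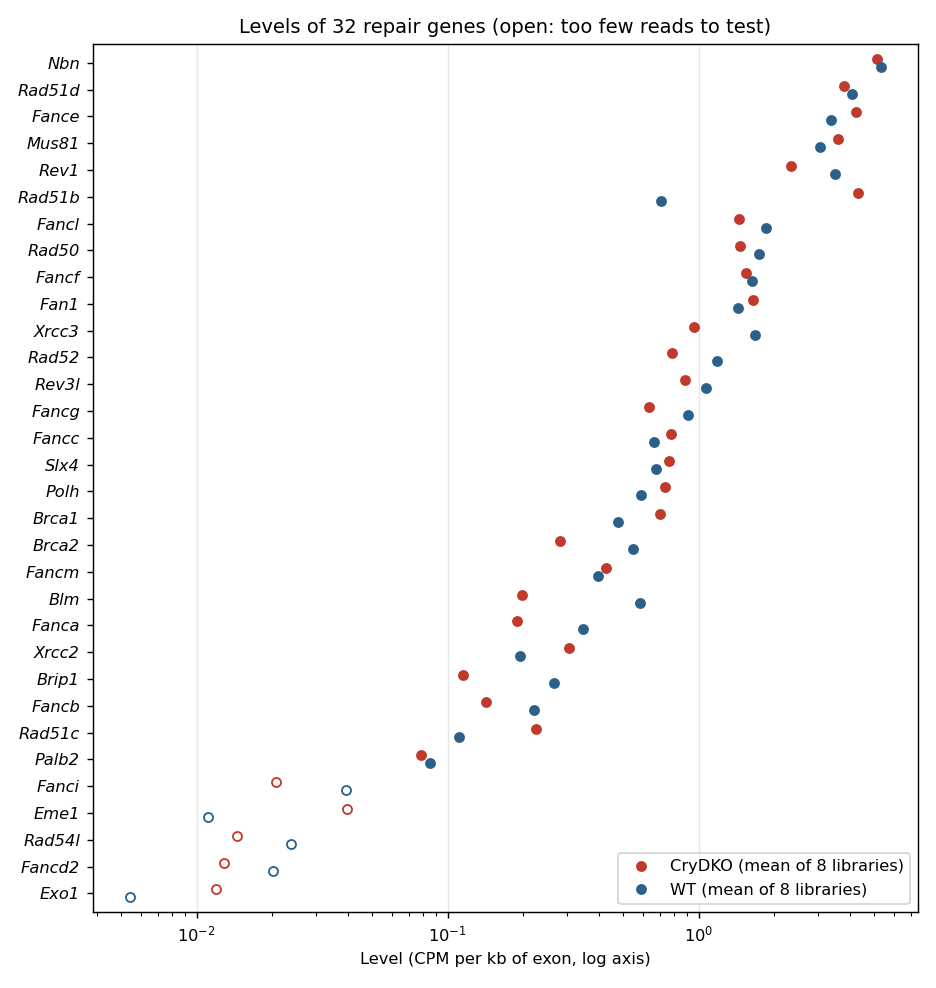
Level of each of the 32 genes in CPM per kb of exon (log axis), with 1 point for the mean of the 8 CryDKO libraries and 1 for the mean of the 8 WT libraries. Open points are the 5 genes with too few reads to test, which sit below all others, and Rad51b shows the widest gap between genotypes.

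Genotype was compared first, CryDKO over WT at each dosing time. At CT16, 4 of the 27 tested members rose in CryDKO (Fance, Slx4, Mus81 and Rad51b) and 3 fell (Brca2, Brip1 and Blm), where 18.2% of all 14484 tested genes changed, 9.0% up and 9.15% down. At CT8, 3 rose (Brca1, Rad51b and Xrcc2) and 8 fell (Fanca, Fancg, Brca2, Brip1, Xrcc3, Rad52, Blm and Rev1), where 39.0% of all genes changed, 18.7% up and 20.3% down. The share of members called was thus near the background at both times, and the median log2 change was -0.08 over the members at CT16 and -0.17 at CT8, against -0.01 and -0.02 over all genes. Calls are p values under 0.05 from edgeR's quasi-likelihood fit, adjusted by Benjamini-Hochberg over all tested genes, and errors of log2 changes are standard errors. CPM of the CryDKO and WT libraries did not overlap for 8 members at CT16, 4 with CryDKO above and 4 below, where this held for 19.8% of all genes, 9.65% above and 10.2% below. At CT8 they did not overlap for 12 members, 3 above and 9 below, where this held for 39.2% of all genes, 18.7% above and 20.5% below. Scaled by library size alone, the split was 1 up and 4 down at CT16 and 1 up and 12 down at CT8, with the median of all genes at -0.16 and -0.36. All genes thus moved downward as well. The shares of all genes called under this scaling are not given here, so these splits are not read as a trait of the members.

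Averaged over both dosing times, 5 members rose in CryDKO (Fance, Mus81, Brca1, Rad51b and Xrcc2) and 8 fell (Fanca, Fancg, Brca2, Brip1, Xrcc3, Rad52, Blm and Rev1), where 47.1% of all genes changed, 22.9% up and 24.2% down. The comparisons at CT16 and CT8 share no library, but both come from the same fit and use its estimate of each gene's spread. In both, 4 members were called, Brca2, Brip1 and Blm downward and Rad51b upward. They make up 57.1% of the CT16 calls and 36.4% of the CT8 calls, where over all genes the 1845 called at both times make up 70.2% and 32.7%. The direction was the same at both times for 23 of the 27 members, and for 77.3% of all genes. The 13 tested members called in no comparison were Fancb, Fancc, Fancf, Fancl, Fancm, Fan1, Palb2, Rad51c, Rad51d, Rad50, Nbn, Rev3l and Polh.

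**Figure D2:**
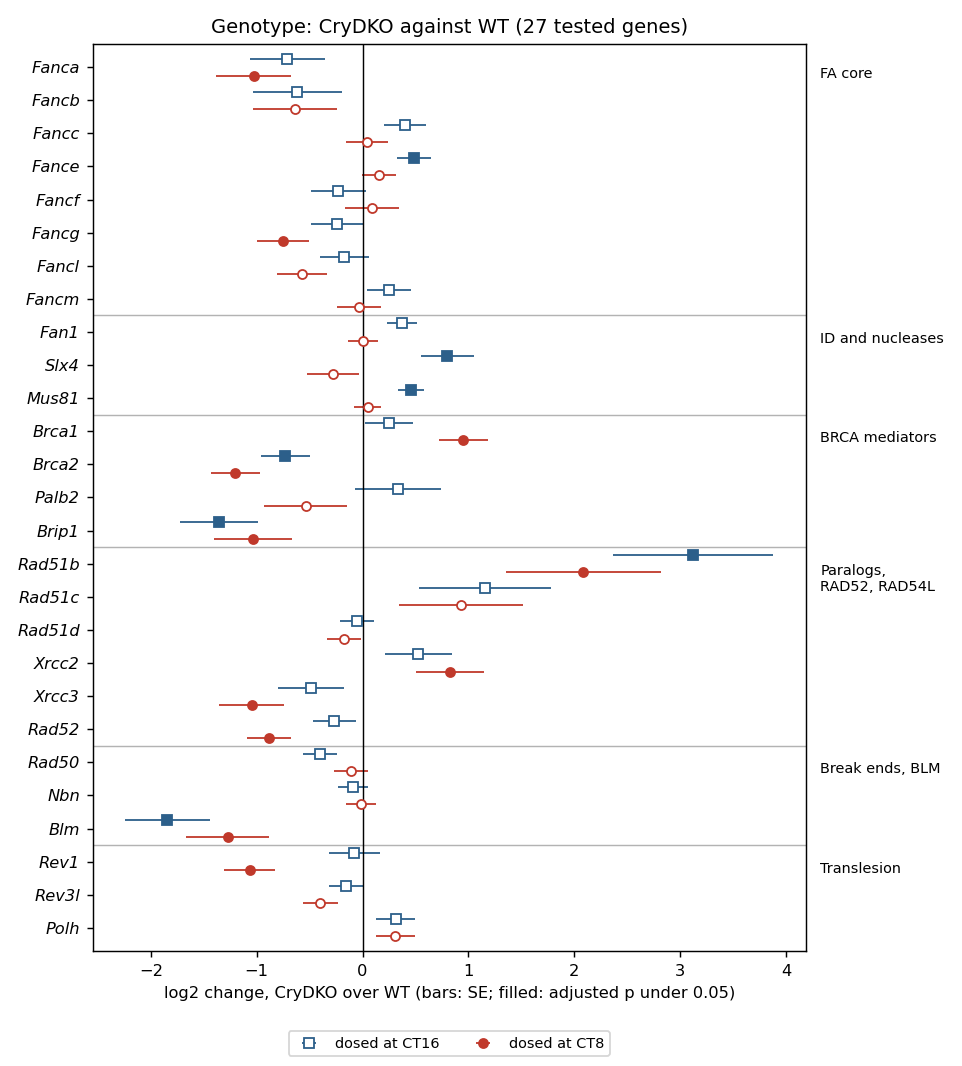
Log2 change of CryDKO over WT for the 27 tested genes, grouped by role, with squares for mice dosed at CT16, circles for mice dosed at CT8 and bars for the standard error. Filled symbols have an adjusted p under 0.05, and Brca2, Brip1, Blm and Rad51b are filled at both times.

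Among the 8 genes of the FA core complex, 1 rose at CT16 (Fance) and 2 fell at CT8 (Fanca and Fancg). Fanca, whose product binds that of Fancg within the complex, had 1.06, 1.95, 1.54 and 2.20 CPM in CryDKO libraries at CT16 against 1.40, 2.45, 2.09 and 5.13 CPM in WT libraries, with library 8 the last and highest. At CT8 Fanca had 1.35, 1.75, 1.27 and 2.08 CPM in CryDKO libraries against 3.64, 4.15, 3.23 and 2.18 CPM in WT libraries. The 4 CryDKO libraries at CT8 all lay below the 4 WT libraries, while at CT16 the groups overlapped. The log2 change was -0.71 ± 0.35 at CT16 (adjusted p = 0.169) and -1.03 ± 0.35 at CT8 (adjusted p = 0.0264). Without library 8 the change at CT16 was -0.24 ± 0.31. Over both times Fanca fell by 0.87 ± 0.25 on the log2 scale (adjusted p = 0.00777).

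Fancg, its partner, had 1.53, 2.29, 2.77 and 2.73 CPM in CryDKO libraries at CT8 against 3.27, 4.49, 4.11 and 3.79 CPM in WT libraries, with no overlap, a log2 change of -0.75 ± 0.25 (adjusted p = 0.0204). At CT16 Fancg had 2.41, 2.34, 3.08 and 2.20 CPM in CryDKO libraries against 2.10, 2.84, 3.09 and 3.84 CPM in WT libraries, which overlapped, a change of -0.24 ± 0.25 (adjusted p = 0.517). Fance, the subunit that binds FANCD2, had 14.9, 11.7, 15.1 and 20.2 CPM in CryDKO libraries at CT16 against 10.7, 11.5, 10.4 and 11.4 CPM in WT libraries. Each CryDKO library lay above each WT library, and the gap between the closest pair was small. Its log2 change was 0.49 ± 0.16 (adjusted p = 0.0382). At CT8 Fance had 11.9, 12.1, 9.13 and 13.1 CPM in CryDKO libraries against 10.6, 11.8, 10.1 and 9.16 CPM in WT libraries, which overlapped (log2 change 0.15 ± 0.16, adjusted p = 0.467). Fancl, the ubiquitin ligase of the complex, did not pass at CT8 although its groups did not overlap, with 4.62, 3.23, 5.26 and 2.97 CPM in CryDKO libraries and 6.10, 6.65, 5.54 and 5.63 CPM in WT libraries (log2 change -0.57 ± 0.24, adjusted p = 0.0599). Fancb, Fancc, Fancf and Fancm passed at neither time. Over the 8 CryDKO and the 8 WT libraries Fancb lay at 0.221 to 0.629 against 0.367 to 0.938 CPM, Fancc at 4.72 to 10.1 against 4.57 to 6.60 CPM, Fancf at 2.38 to 3.23 against 1.47 to 3.99 CPM and Fancm at 3.44 to 6.29 against 3.20 to 4.70 CPM.

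The FA core calls at single times rested on few libraries. Fanca at CT8 was lost without CryDKO library 9 or 15 or WT library 1 or 2 (adjusted p 0.0637 to 0.0861), and Fancg without CryDKO library 9 or WT library 2 or 3 (0.0524 to 0.0870) or with no low count filter (0.0595). Fance at CT16 was lost in 16 of 24 other settings, 11 of them with 1 library left out, and its highest adjusted p among those was 0.144, without CryDKO library 14.

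Of the nuclease genes, Slx4 and Mus81 rose in CryDKO at CT16 and neither passed at CT8. Slx4, the scaffold that brings structure-specific nucleases to the crosslink, had 4.82, 6.63, 8.17 and 4.20 CPM in CryDKO libraries at CT16 against 3.09, 2.27, 4.37 and 3.94 CPM in WT libraries, so that 3 of 4 CryDKO libraries lay above every WT library. At CT8 Slx4 had 7.10, 5.71, 4.21 and 5.70 CPM in CryDKO libraries against 8.12, 7.77, 4.82 and 6.94 CPM in WT libraries, which overlapped. Slx4 had a log2 change of 0.80 ± 0.25 at CT16 (adjusted p = 0.0327) and -0.28 ± 0.25 at CT8 (adjusted p = 0.377). Mus81, the catalytic partner of the nearly silent Eme1, had 11.8, 13.9, 13.1 and 11.5 CPM in CryDKO libraries at CT16 against 8.91, 9.10, 9.44 and 9.17 CPM in WT libraries. The WT libraries lay close together, all below the CryDKO libraries, and the log2 change was 0.46 ± 0.13 (adjusted p = 0.0161). At CT8 Mus81 had 13.9, 14.2, 12.1 and 11.8 CPM in CryDKO libraries against 11.8, 13.4, 11.8 and 13.3 CPM in WT libraries, which overlapped (log2 change 0.05 ± 0.12, adjusted p = 0.782). Fan1, a nuclease that trims DNA at crosslinks, had 12.4, 10.7, 10.3 and 12.2 CPM in CryDKO libraries at CT16 against 10.1, 7.48, 8.08 and 9.59 CPM in WT libraries, which did not overlap, with a change of 0.37 ± 0.14 that did not pass (adjusted p = 0.0730). The Slx4 call at CT16 was lost without CryDKO library 12 or 13 or WT library 5 or 6 (adjusted p 0.0708 to 0.126), and the Mus81 call without CryDKO library 12 (0.0535). Scaled by library size alone, neither gene passed at CT16, with adjusted p of 0.145 for Slx4 and 0.178 for Mus81, and neither passed with only the groups compared (0.0687 and 0.0602). With no low count filter Mus81 did not pass (0.0730).

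Among the recombination mediators, Brca2 and Brip1 fell at both dosing times and Brca1 rose at CT8. Brca2, a central mediator of homologous recombination, had 4.47, 3.18, 3.60 and 5.43 CPM in CryDKO libraries at CT16 against 5.86, 6.91, 5.73 and 9.14 CPM in WT libraries. At CT8 Brca2 had 2.96, 3.37, 3.71 and 3.97 CPM in CryDKO libraries against 7.53, 11.6, 6.67 and 6.34 CPM in WT libraries. The highest of the 8 CryDKO libraries lay below the lowest of the 8 WT libraries, a separation that only Blm shared among the 27 tested members. All 8 libraries of each genotype lay apart in this way for 7.88% of all genes, 3.58% with CryDKO above and 4.30% below. The log2 change was -0.73 ± 0.23 at CT16 (adjusted p = 0.0321), -1.20 ± 0.23 at CT8 (adjusted p = 0.000639) and -0.97 ± 0.16 over both times (adjusted p = 0.000106). The CT16 call was lost without CryDKO library 12 or 13 or WT library 6 or 8 (adjusted p 0.0542 to 0.110), whereas the CT8 call and the call over both times held in all 24 and 23 other settings run.

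Brip1, a helicase that binds BRCA1, had 1.70, 0.619, 0.628 and 0.512 CPM in CryDKO libraries at CT16 against 2.56, 1.83, 2.43 and 1.99 CPM in WT libraries. At CT8 Brip1 had 0.741, 1.30, 0.885 and 0.446 CPM in CryDKO libraries against 1.62, 1.70, 1.85 and 1.80 CPM in WT libraries. Every CryDKO library lay below every WT library of its own dosing time, the closest being library 11 at CT16. The log2 change was -1.36 ± 0.37 at CT16 (adjusted p = 0.0162) and -1.04 ± 0.37 at CT8 (adjusted p = 0.0319). The CT16 call was lost without CryDKO library 12 or 13 (adjusted p 0.0532 and 0.0524), and the CT8 call without CryDKO library 9, 15 or 16 or any of the 4 WT libraries (0.0528 to 0.0942) or with no low count filter (0.0556), while the change over both times, -1.20 ± 0.26, kept its call in all 22 settings run (adjusted p = 0.00108 as reported).

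Brca1, the scaffold that starts recombination at a break, went the other way. It had 6.29, 4.33, 5.25 and 8.71 CPM in CryDKO libraries at CT16 against 5.78, 5.61, 4.56 and 4.67 CPM in WT libraries, and the groups overlapped. At CT8 it had 4.14, 6.02, 8.02 and 4.96 CPM in CryDKO libraries against 3.16, 2.94, 2.73 and 3.11 CPM in WT libraries, with no overlap. On the log2 scale Brca1 differed by 0.25 ± 0.23 at CT16 (adjusted p = 0.460) and 0.95 ± 0.23 at CT8 (adjusted p = 0.00352), a call that held in all 24 other settings. Palb2, which bridges BRCA1 and BRCA2, lay between 0.288 and 1.08 CPM in every library and passed at neither time.

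**Figure D3:**
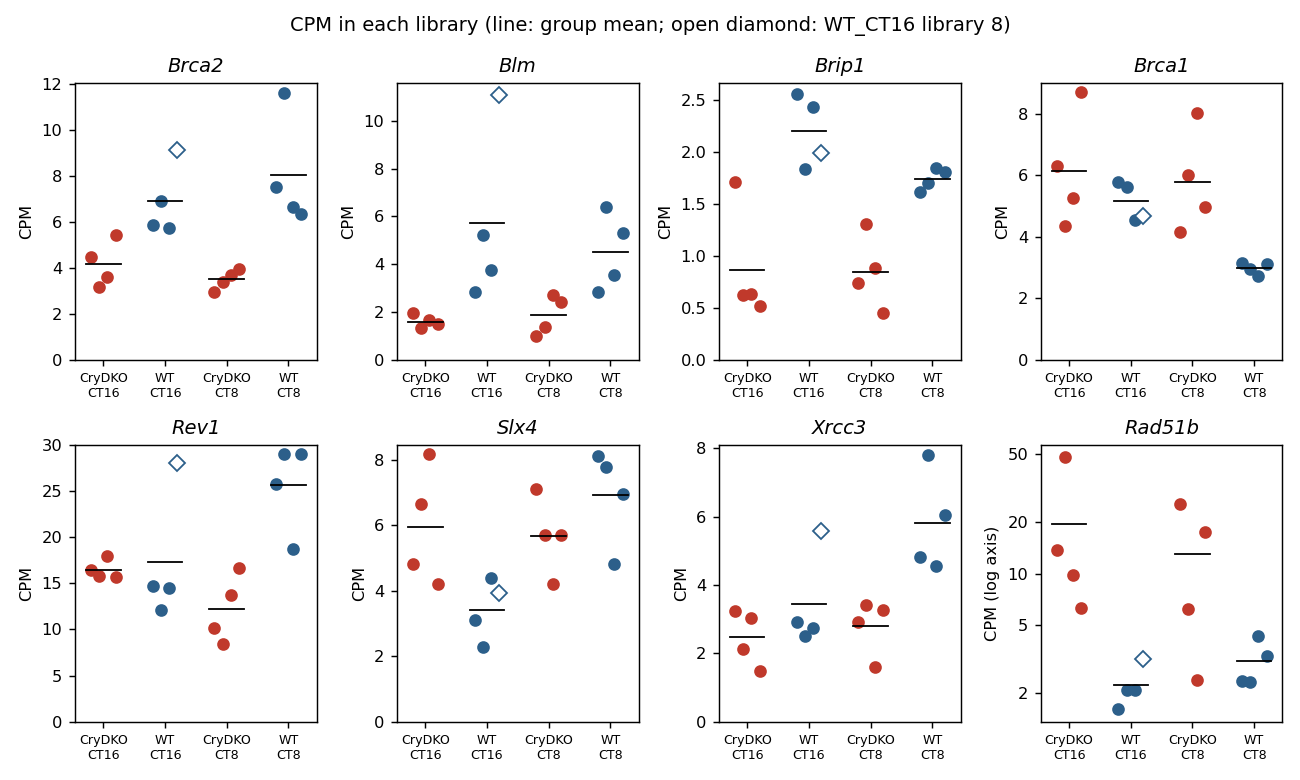
CPM of 8 genes in each library (points), with lines at group means and an open diamond for WT library 8 at CT16. Groups run CryDKO then WT at CT16, then CryDKO and WT at CT8, and the Rad51b panel has a log axis. The 8 CryDKO points lie below the 8 WT points for Brca2 and for Blm.

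Rad51b, Rad51c, Rad51d, Xrcc2 and Xrcc3, paralogs that act in recombination, differed in direction. Rad51b rose at both times and showed the widest spread of the members in CryDKO at CT8. It had 13.8, 48.2, 9.82 and 6.30 CPM in CryDKO libraries at CT16 against 1.61, 2.09, 2.09 and 3.17 CPM in WT libraries, with no overlap. At CT8 it had 25.8, 6.25, 2.38 and 17.5 CPM in CryDKO libraries against 2.35, 2.32, 4.32 and 3.30 CPM in WT libraries, and here CryDKO library 15 lay within the WT range. On the log2 scale Rad51b rose by 3.12 ± 0.76 at CT16 (adjusted p = 0.0145) and 2.09 ± 0.73 at CT8 (adjusted p = 0.0385). The highest CryDKO library exceeded the lowest 7.64-fold at CT16 and 10.8-fold at CT8, where the median of the 27 members was 1.69-fold and 1.59-fold. The CT16 call held in all 24 other settings. The CT8 call was lost in 10 of 24, which were limma voom (adjusted p = 0.0736), library size alone (0.0624), no low count filter (0.0626) and CryDKO library 9 or 16, any WT library at CT8 or WT library 7 left out (0.0501 to 0.123).

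Rad51c, which acts in a complex with Rad51b, had 0.411, 1.68, 1.20 and 0.102 CPM in CryDKO libraries at CT16 against 0.412, 0.612, 0.294 and 0.209 CPM in WT libraries, and passed at neither time (log2 change 1.16 ± 0.62 at CT16 and 0.93 ± 0.59 at CT8, adjusted p = 0.202 and 0.216). It varied 16.4-fold among the CryDKO libraries at CT16, but from only 7, 38, 21 and 2 reads, so the fold rests on very few reads. Xrcc2, of the same complex, had 1.74, 1.39, 1.38 and 1.39 CPM in CryDKO libraries at CT8 against 1.07, 0.836, 0.713 and 0.713 CPM in WT libraries, with no overlap. At CT16 Xrcc2 had 1.23, 1.68, 1.77 and 2.15 CPM in CryDKO libraries against 1.03, 0.683, 1.25 and 1.78 CPM in WT libraries, which overlapped. Its change was 0.53 ± 0.32 at CT16 (adjusted p = 0.257) and 0.82 ± 0.32 at CT8 (adjusted p = 0.0488). The CT8 call was the weakest of the 11, lost in 12 of 23 other settings, with library size alone (adjusted p = 0.293), with no low count filter (0.0899) and with 10 single libraries left out (0.0541 to 0.105, the highest without WT library 4). Rad51d, the partner of Xrcc2, passed at neither time, with 12.0 to 18.8 CPM in the CryDKO libraries and 12.2 to 18.7 CPM in the WT libraries.

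Xrcc3, the paralog that pairs with Rad51c in another complex, fell at CT8. It had 3.23, 2.12, 3.03 and 1.49 CPM in CryDKO libraries at CT16 against 2.93, 2.52, 2.76 and 5.58 CPM in WT libraries, the last being library 8. At CT8 it had 2.92, 3.41, 1.60 and 3.27 CPM in CryDKO libraries against 4.81, 7.80, 4.57 and 6.04 CPM in WT libraries, with no overlap. The log2 change was -0.49 ± 0.31 at CT16 (adjusted p = 0.287) and -1.05 ± 0.31 at CT8 (adjusted p = 0.0114), and the CT8 call was lost without WT library 2 (adjusted p = 0.0508). Without library 8 the change at CT16 was -0.17 ± 0.29. Rad52, a protein that anneals DNA strands, also fell at CT8, with 5.36, 4.72, 3.38 and 4.11 CPM in CryDKO libraries against 5.95, 9.32, 7.43 and 9.76 CPM in WT libraries, again with no overlap. At CT16 Rad52 had 4.94, 5.26, 4.57 and 3.69 CPM in CryDKO libraries against 5.07, 4.82, 5.33 and 6.97 CPM in WT libraries, which overlapped. Its change was -0.27 ± 0.21 at CT16 (adjusted p = 0.388) and -0.88 ± 0.20 at CT8 (adjusted p = 0.00253), and the CT8 call held in all 24 other settings.

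Of the genes that process broken ends and joined strands, Blm fell at both times and Nbn and Rad50 passed at neither. Blm, the helicase that dissolves joined DNA molecules, had 1.94, 1.33, 1.66 and 1.49 CPM in CryDKO libraries at CT16 against 2.85, 5.22, 3.75 and 11.1 CPM in WT libraries. At CT8 Blm had 1.00, 1.39, 2.71 and 2.43 CPM in CryDKO libraries against 2.83, 6.38, 3.57 and 5.29 CPM in WT libraries. As for Brca2, the 8 CryDKO libraries lay below the 8 WT libraries, although the margin was narrow, 2.71 CPM for the highest CryDKO library and 2.83 CPM for the lowest WT library. The log2 change was -1.84 ± 0.40 at CT16 (adjusted p = 0.00438), -1.27 ± 0.39 at CT8 (adjusted p = 0.0160) and -1.56 ± 0.28 over both times (adjusted p = 0.000230). The size at CT16 leaned on WT library 8, and without it the change there was -1.32 ± 0.34 (adjusted p = 0.0174). The CT8 call was lost without CryDKO library 9 or WT library 2 (adjusted p = 0.0578 and 0.0646). Rad50, which tethers DNA ends with NBN, had 8.17, 7.52, 5.82 and 7.48 CPM in CryDKO libraries at CT16 against 8.54 to 10.1 CPM in WT libraries, which did not overlap. At CT8 its libraries lay at 6.33 to 9.24 CPM in CryDKO against 7.90 to 9.98 CPM in WT. It had a change of -0.40 ± 0.16 at CT16 (adjusted p = 0.0859) and -0.11 ± 0.16 at CT8 (adjusted p = 0.610).

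Of the translesion polymerases, Rev1 fell at CT8 and the other two did not pass at either time. Rev1, a scaffold for the polymerases that copy past damage, had 16.5, 15.7, 18.0 and 15.6 CPM in CryDKO libraries at CT16 against 14.7, 12.1, 14.4 and 28.1 CPM in WT libraries. At CT8 Rev1 had 10.2, 8.45, 13.8 and 16.7 CPM in CryDKO libraries against 25.8, 29.0, 18.7 and 29.0 CPM in WT libraries. The groups did not overlap at CT8, while at CT16 the CryDKO libraries lay above 3 WT libraries and below library 8. Rev1 had a log2 change of -0.08 ± 0.24 at CT16 (adjusted p = 0.850) and -1.07 ± 0.24 at CT8 (adjusted p = 0.00234), and the CT8 call held in all 24 other settings. Without library 8 the change of Rev1 at CT16 turned positive, at 0.25 ± 0.19 (adjusted p = 0.428). Rev3l, the catalytic subunit of polymerase zeta, had 9.42 to 15.6 CPM in the CryDKO libraries against 11.3 to 17.5 CPM in the WT libraries, with a change of -0.15 ± 0.17 at CT16 (adjusted p = 0.556) and -0.40 ± 0.17 at CT8 (adjusted p = 0.0637). Polh, the polymerase that copies past intrastrand platinum links, varied least of the 27 tested members among CryDKO libraries, 1.07-fold at CT16 and 1.12-fold at CT8, and 1.5-fold among WT libraries at CT16. It had 4.88, 4.64, 4.57 and 4.87 CPM in CryDKO libraries at CT16 against 4.74, 3.17, 3.82 and 3.56 CPM in WT libraries. At CT8 Polh had 3.97, 4.22, 3.76 and 3.92 CPM in CryDKO libraries against 3.23, 3.40, 2.77 and 3.38 CPM in WT libraries, which did not overlap, with a log2 change of 0.31 ± 0.18 that did not pass (adjusted p = 0.187).

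Counts may be affected where genes overlap on opposite strands, since the strand setting is not given in the sources used here. In GENCODE M21 on GRCm38, 15 members share exon bases with a gene on the other strand. The largest share is that of Rev1 with Eif5b, a translation factor gene, 26.6% of Rev1 exon bases. Eif5b had a log2 change of -0.25 ± 0.19 at CT16 (adjusted p = 0.366) and 0.0029 ± 0.19 at CT8 (adjusted p = 0.991), where Rev1 fell. Fanca shares 10.5% with Zfp276, which had -0.05 ± 0.22 at CT16 (adjusted p = 0.904) and fell by 0.57 ± 0.22 on the log2 scale at CT8 (adjusted p = 0.0491), in the direction of Fanca. For Mus81 and Efemp2 the share is 4.85%, and Efemp2 had 0.77 ± 0.33 at CT16 (adjusted p = 0.109), where Mus81 rose. At CT8, where Mus81 did not pass, Efemp2 rose by 1.06 ± 0.33 on the log2 scale (adjusted p = 0.0148). Reads of such pairs cannot be told apart here.

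A list of 62 further genes of the same pathways was counted beside the members, 55 of them tested. At CT16, 5 rose in CryDKO and 4 fell, and at CT8, 8 rose and 12 fell, read against the same 18.2% and 39.0% of all genes. Mad2l2, which encodes the REV7 subunit of polymerase zeta, rose at both times, by 0.72 ± 0.15 on the log2 scale at CT16 (adjusted p = 0.00293) and by 1.06 ± 0.15 at CT8 (adjusted p = 6.14e-05). Rmi1, which encodes a partner of BLM, fell at both times, at -0.85 ± 0.17 at CT16 (adjusted p = 0.00281) and -1.03 ± 0.17 at CT8 (adjusted p = 0.000232). Dclre1c, the end-processing nuclease Artemis, changed by -0.79 ± 0.23 at CT16 (adjusted p = 0.0232) and -1.56 ± 0.23 at CT8 (adjusted p = 9.14e-05). Poli, another translesion polymerase, changed by -0.65 ± 0.22 at CT16 (adjusted p = 0.0469) and -1.22 ± 0.22 at CT8 (adjusted p = 0.000409). Of the genes whose products form a complex with BRCA1, Brcc3 fell at both times (-0.58 ± 0.12 at CT16 and -0.36 ± 0.12 at CT8), Babam1 rose at both (0.53 ± 0.14 and 0.50 ± 0.14), Uimc1 and Abraxas1 fell at CT8 (-0.99 ± 0.16 and -1.21 ± 0.19), and Babam2 rose at CT8 (0.44 ± 0.16, adjusted p = 0.0368). Eme2, which encodes another partner of MUS81, rose at CT16 by 0.63 ± 0.18 on the log2 scale (adjusted p = 0.0186). The median log2 change of the 55 was -0.07 at CT16 and -0.06 at CT8.

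Several members are also known to rise in S phase, so genes of S phase and mitosis were counted for comparison, again beside 18.2% of all genes called at CT16 and 39.0% at CT8. Of 27 tested, 1 rose at CT16 (Mcm7) and 26 did not pass. At CT8, 3 rose (Ccne1, Mcm3 and Mcm7) and 2 fell (Birc5 and E2f8). Their summed level was 93.5 to 108 CPM in CryDKO libraries at CT16 against 103 to 116 CPM in WT libraries, and 79.2 to 133 CPM in CryDKO libraries at CT8 against 98.1 to 134 CPM in WT libraries, so the groups overlapped. Of 25 p53 target genes, 5 rose at CT16 and 20 did not pass, and at CT8 6 rose and 4 fell, beside the same shares of all genes. Cdkn1a, the p53 target that arrests the cell cycle, rose by 1.27 ± 0.38 on the log2 scale at CT16 (adjusted p = 0.0333) and by 1.38 ± 0.38 at CT8 (adjusted p = 0.0111). Bax, Phlda3 and Sesn2 also rose at both times, Zmat3 at CT16, and Btg2 and Xpc at CT8. Mdm2, which encodes the ligase that degrades p53, fell at CT8 (-0.79 ± 0.20), as did Ddb2 (-1.13 ± 0.27), Rrm2b (-0.78 ± 0.22) and Polk (-0.63 ± 0.23).

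Dosing time was compared within each genotype, CT16 over CT8. In CryDKO no member changed in edgeR's test, with 0% of all genes called, and DESeq2 and limma voom also called 0 members. Before adjustment, edgeR's p lay under 0.05 for 3, Fance (0.42 ± 0.16), Fancl (0.53 ± 0.24) and Fan1 (0.40 ± 0.14), with adjusted p of 0.671 to 0.769, where 6.48% of all genes had such a p. Fan1 had 12.4, 10.7, 10.3 and 12.2 CPM in CryDKO libraries at CT16 against 9.24, 7.95, 8.30 and 9.07 CPM at CT8, with no overlap. Polh was the other member whose CryDKO libraries at CT16 all lay above those at CT8. Groups of CryDKO libraries lay apart by dosing time for 2.45% of all genes, 1.17% with CT16 above and 1.28% below.

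In WT, Slx4 fell at CT16 and no other member passed, where 2.53% of all genes changed, 1.24% up and 1.30% down. Slx4 had 3.09, 2.27, 4.37 and 3.94 CPM in WT libraries at CT16 against 8.12, 7.77, 4.82 and 6.94 CPM at CT8, with no overlap, and its log2 change was -1.02 ± 0.25 (adjusted p = 0.0441). The call was lost without any of WT libraries 1, 2, 4, 5, 6 and 7 (adjusted p 0.0804 to 0.155). Mus81 came next at -0.46 ± 0.12 (adjusted p = 0.0514), with 8.91, 9.10, 9.44 and 9.17 CPM at CT16 against 11.8, 13.4, 11.8 and 13.3 CPM at CT8. Brca1 followed at 0.79 ± 0.23 (adjusted p = 0.0593), with 5.78, 5.61, 4.56 and 4.67 CPM at CT16 against 3.16, 2.94, 2.73 and 3.11 CPM at CT8. Neither gene's groups overlapped, a separation that Slx4, Mus81 and Brca1 shared with 12.6% of all genes, 5.52% with CT16 above and 7.12% below.

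Library 8 weighed heavily on this comparison. Without it, 6 members passed, where 24.4% of all genes then did: Slx4 (-1.05 ± 0.27, adjusted p = 0.0113), Mus81 (-0.42 ± 0.13, 0.0273), Xrcc3 (-1.05 ± 0.29, 0.0156), Rad52 (-0.63 ± 0.20, 0.0303) and Rev1 (-0.86 ± 0.19, 0.00647) were lower at CT16, and Brca1 (0.87 ± 0.25, 0.0195) was higher. Rev1 shows the pattern in its counts, with 14.7, 12.1 and 14.4 CPM in the other 3 WT libraries at CT16, 28.1 CPM in library 8, and 25.8, 29.0, 18.7 and 29.0 CPM at CT8. With library 8 the change of Rev1 was -0.56 ± 0.24 (adjusted p = 0.141). Without library 8 the comparison of genotypes at CT16 called 3 members up and 2 down, where 12.9% of all genes changed, and Brca2 (-0.58 ± 0.23, adjusted p = 0.110) and Fance (0.50 ± 0.18, adjusted p = 0.0703) no longer passed. Changes of Fancg and Rad52 at CT16 that had not passed were then -0.11 ± 0.25 and -0.15 ± 0.20.

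**Figure D4:**
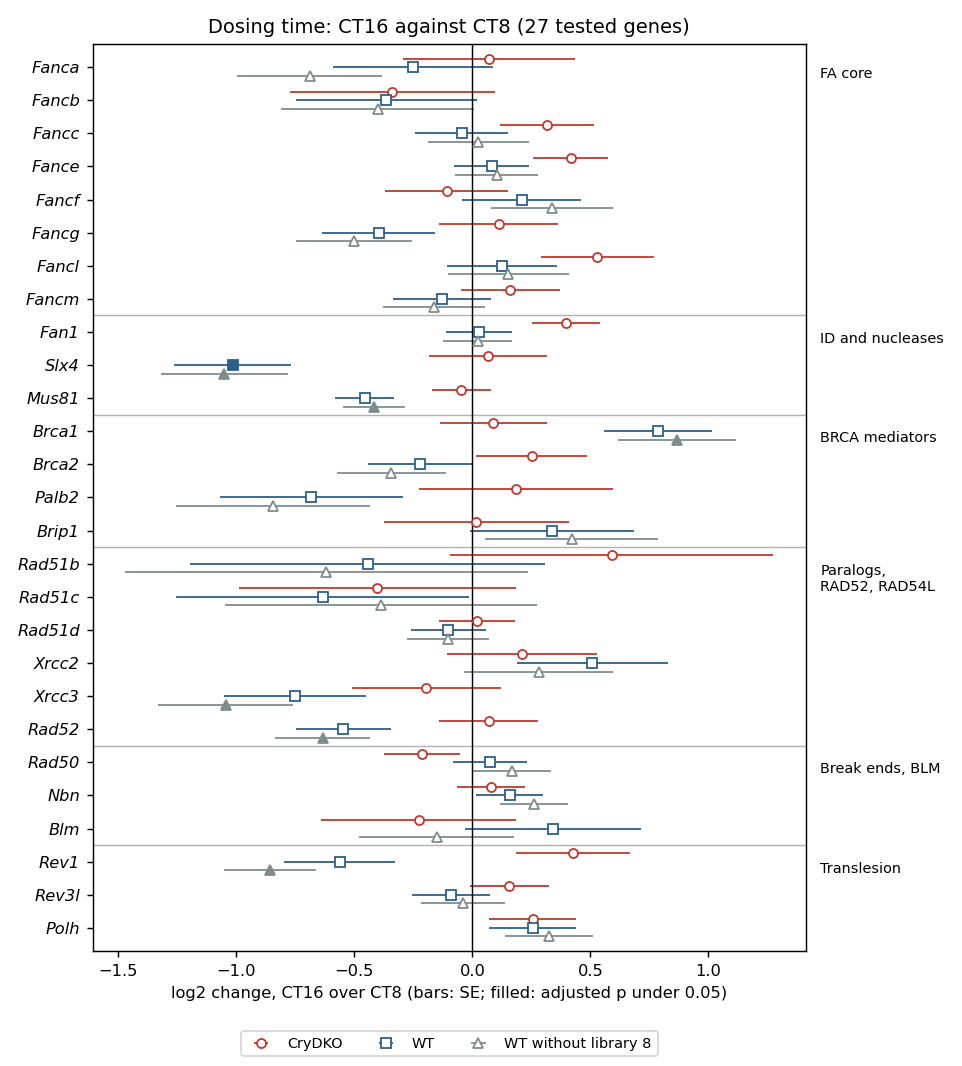
Log2 change of CT16 over CT8 for the 27 tested genes, with circles for CryDKO, squares for WT, triangles for WT without library 8 and bars for the standard error. Filled symbols have an adjusted p under 0.05, which holds for Slx4 in WT, for 6 genes in WT without library 8 and for no gene in CryDKO.

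Whether the dosing time acted differently in CryDKO and in WT was tested by the interaction. No member passed in edgeR's test, where 0.0414% of all genes did, and DESeq2 and limma voom called 0 members as well. Before adjustment, edgeR's p lay under 0.05 for 5: Slx4 (1.08 ± 0.35), Rev1 (0.99 ± 0.34), Mus81 (0.41 ± 0.18), Brca1 (-0.70 ± 0.32) and Rad52 (0.62 ± 0.29), with adjusted p of 0.239 to 0.365, where 13.3% of all genes had such a p. Without library 8, Rev1 passed with an interaction of 1.29 ± 0.27 on the log2 scale (adjusted p = 0.0195), where 3.86% of all genes did.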

How the data were processed

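Liver RNA of 16 libraries was analysed from the deposited count table, whose values are whole-number counts of reads per gene symbol, not normalized. Per the submitters' processing notes, FastQC, Trimmomatic 0.35, STAR 2.5.3, HTSeq 1.99.2 and DESeq2 were used with build GRCm39 (mm39), and the annotation, strand setting and parameters are not given in the sources used here. Columns carry a running number, not a replicate number, so groups were taken from column names and libraries were not paired. In R 4.3.3, edgeR 4.0.16 kept 14484 genes by filterByExpr with a minimum count of 10 and scaled libraries by TMM. It fitted 1 coefficient per group to all 16 libraries with the robust quasi-likelihood method, after being tested on simulated data. Those data were drawn with the spread that edgeR estimated here, so they cannot show whether the method suits an outlying library. The 6 comparisons used two-sided p values, adjusted by Benjamini-Hochberg over all tested genes, and a threshold of 0.05. Standard errors are |log2 change| over the root of the F statistic. CPM use TMM-scaled library sizes, and levels per kb use exon lengths of GENCODE M21 (GRCm38), matched by symbol. Pairs of libraries within a group differed by more than counting error, their chi-square statistics being 20.2 to 136 times the degrees of freedom. Alternatives were DESeq2 1.42.0, limma 3.58.1 voom, other scalings and filters, no robust option, only the groups compared, and each library left out. Each called member is given in every library, the others by range or by library, and at most 6 further pathway genes per comparison by lowest p. Babam2 and the p53 targets were named after their values were seen. The members, lists and tests were chosen with earlier results of these data known. A gene of the list of further pathway genes is not reported here.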

Additional observations from a re-analysis of the deposited data

Results flagged for a closer look

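Of 108 pairs of a tested member and a group of 4 libraries, 8 held 1 library far from the other 3, its gap to the nearest being a larger part of the group's range than Dixon's 95% critical value. Chance flags about 1 in 20 such groups.

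Of the 8, 2 were in WT library 8 at CT16, the library that stood apart in scaling and markers. Rev1 had 28.1 CPM there against 12.1 to 14.7 CPM in the other 3 libraries, and Xrcc3 had 5.58 CPM against 2.52 to 2.93 CPM. Library 8 had 103 CPM of summed macrophage markers and 61665 CPM of summed hepatocyte markers. It also had 125 CPM of sinusoidal endothelium markers and 161 CPM of stellate cell and fibroblast markers. The part of these markers in the values of Rev1 and Xrcc3 was not tested.

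In CryDKO at CT16, Fancc had 10.1 CPM in library 14 against 6.02 to 6.41 CPM in the others, and Brip1 had 1.70 CPM in library 11, from 29 reads, against 0.512 to 0.628 CPM. In CryDKO at CT8, Rad51c had 2.29 CPM in library 10, from 51 reads, against 0.553 to 0.843 CPM. Rad50 was lowest in the same library, at 6.33 CPM against 9.02 to 9.24 CPM. Xrcc2 had 1.74 CPM in library 9, from 40 reads, against 1.38 to 1.39 CPM. In WT at CT8, Nbn was lowest in library 2, at 12.0 CPM against 12.9 to 13.1 CPM.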

How the results depend on the processing

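None of the called log2 changes reversed under the alternatives run for it. Of 750 comparisons of a called change with an alternative, 659 kept their side of the threshold and 91 lost it. Changes that were not called were also refitted under the alternatives, and some then passed. Among them by genotype at CT8 were Fancl with limma voom (adjusted p = 0.0410) and Rev3l with only the groups compared (0.0346). At CT16, Fan1 passed with DESeq2 (0.0460). Over both times, Polh and Rad51c passed with DESeq2 (0.0262 and 0.0349), and Rad50 with genes of at least 50 reads on average (0.0253). Signs of changes that were not called were compared only without library 8, where 7 of 162 changes turned sign, none of them called. Among these, Rev1 by genotype at CT16 was 0.25 without it and -0.08 with it, and Blm by dosing time in WT was -0.15 without it and 0.34 with it. The number of members called moved by over 1.5 times in these cases, besides those that left out a library. By genotype at CT8, where 11 were called, it was 7 with no low count filter. By genotype at CT16, where 7 were called, it was 4 with only the groups compared. For CT16 against CT8 in WT, where 1 was called, it was 3 with DESeq2 and 2 with limma voom, with scaling by library size alone, without the filter, with genes of at least 50 reads on average, or with only the groups compared. The cause was not tested.

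With each library left out in turn, the number ran from 3 to 7 by genotype at CT16, 4 to 12 by genotype at CT8, 12 to 15 over both times, 0 to 6 for dosing time in WT, 0 to 0 for dosing time in CryDKO and 0 to 1 for the interaction. It was 3 at CT16 without CryDKO library 12 or 13 and 4 without WT library 6. At CT8 it was 5 without CryDKO library 9, 4 without WT library 2 and 7 without WT library 3. For dosing time in WT it was 0 without any of WT libraries 1, 2, 4, 5, 6 and 7, 6 without library 8, 2 without CryDKO library 9 and 3 without CryDKO library 14. Shares of all genes called are given only for the fit without library 8. There the share for dosing time in WT was 24.4%, against 2.53% with it. The counts under other alternatives and left-out libraries therefore do not show whether the members were less stable than other genes.

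Scaled by library size alone, the median of all genes moved to -0.16 by genotype at CT16, -0.36 at CT8 and -0.26 over both times, and to -0.29 for dosing time in WT and 0.20 for the interaction. The split over both times was then 1 up and 14 down, and the rises of Fance, Mus81, Brca1 and Xrcc2 no longer passed (adjusted p = 0.677, 0.949, 0.0723 and 0.196). The share of all genes called under this scaling is not given here, so the split is not read as a trait of the members. Over both times, Fancg and Mus81 also lost their calls with no low count filter (0.0615 and 0.0707), Fance with genes of at least 50 reads on average (0.0547), Fancg without CryDKO library 9 or WT library 2 or 8 (0.0523 to 0.0556) and Fance without CryDKO library 14 or WT library 4 (0.0595 and 0.0525). No paired analysis was possible because the columns carry no replicate number. The 5 untested members, with 26 to 70 reads in all, and members near 1 CPM are limited by depth, and a member that did not pass may still differ.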
